A study of Mus musculus with 15 samples.

Results

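The cerebellins Cbln1, Cbln2, Cbln3 and Cbln4, the delta glutamate receptor Grid1 and the neurexins Nrxn2 and Nrxn3 were followed through the cerebellum (Ce) and striatum (St) of 2 mouse lines. They were taken by gene symbol, as 7 of the 26628 genes in the deposited table, and all 7 passed the filter on low values that left 15213 genes for testing. The mice were males of the outbred strain Hsd:ICR, labelled as 6 weeks old, and came either from a line bred over many generations for high voluntary wheel running (Hi, labelled Selected) or from an unselected line (Co, labelled Control). Mice of both lines had free access to a wheel for several days before the whole Ce and the whole St were dissected during the dark phase, so running and breeding cannot be told apart. There were 4 CeCo, 4 CeHi, 4 StCo and 3 StHi samples, each from 1 mouse, and replicates are numbered 0 to 3 as in the labels. A single line stands for each kind of breeding, so a difference between Hi and Co is a difference between these 2 lines.

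Cerebellins are secreted proteins with a C1q-type domain that act as bridges at synapses. On the presynaptic side they bind neurexins, and on the postsynaptic side they bind delta receptors, members of the ionotropic glutamate receptor family that serve mainly as adhesion molecules. In the cerebellum, Cbln1 is released by granule cells and links the neurexins of parallel fibres to Purkinje cell dendrites, and mice without Cbln1 lose many of these synapses and become ataxic. Cbln3 is made by granule cells as well and leaves the cell only together with Cbln1. Cbln2 and Cbln4 are made by groups of neurons in the forebrain and brain stem, and Cbln4 also binds the netrin receptors Dcc and Neo1.

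The values are normalized counts, that is, fragments per gene divided by a library-size factor of the sample. Samples held between 32909383 and 47485535 fragments, and 1 fragment was worth 0.841 to 1.30 normalized counts. The tissue labels were borne out by markers. The 8 granule cell markers summed to between 4274 and 4997 counts per 1000000 of the sample total (CPM) in the Ce samples and to between 115 and 175 in the St samples, and the 10 markers of medium spiny neurons, the main neurons of the striatum, summed to between 383 and 441 CPM in the Ce and between 5176 and 7239 in the St. One Ce sample, CeHi replicate 3, stood apart from the others in Cbln2, Cbln4 and several markers of other regions, and results that rest on it are given with and without it. In whole tissue, fewer cells of a type and less RNA per cell cannot be told apart.

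The cerebellins are close in sequence, which bears on whether their fragments can be separated. Coding sequences of Cbln1 (579 bases without the stop codon) and Cbln2 were 71.7% identical over aligned bases, those of Cbln1 and Cbln4 were 66.1% identical, and those of Cbln1 and Cbln3 were 60.8% identical. The stretch of 90 aligned coding bases with the most positions shared by all 4 genes is shown for 3 of them (GENCODE transcripts on GRCm38, all on the minus strand), with capitals at the 51 bases that are the same in Cbln1, Cbln2, Cbln3 and Cbln4. It runs across the junction of exons 2 and 3 of the 3 exons of each transcript, between chr8:87470415-87471744 for Cbln1, chr14:55883141-55883519 for Cbln3 and chr2:172037531-172039026 for Cbln4.
Cbln1: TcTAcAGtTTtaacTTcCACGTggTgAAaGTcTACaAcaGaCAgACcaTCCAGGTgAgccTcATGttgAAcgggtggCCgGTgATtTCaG
Cbln3: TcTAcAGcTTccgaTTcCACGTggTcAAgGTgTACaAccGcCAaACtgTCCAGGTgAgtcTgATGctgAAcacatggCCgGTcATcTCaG
Cbln4: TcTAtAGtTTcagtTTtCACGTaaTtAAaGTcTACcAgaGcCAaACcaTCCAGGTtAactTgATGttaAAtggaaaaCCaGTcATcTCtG
Even here the identical runs are short. The longest run of identical bases between the coding sequences of any pair was 21 bases, well under the read length of 100 bases. No window of 50 bases of the longest Cbln1, Cbln2 or Cbln4 transcript occurred in a transcript of another gene, and 1.89% of the windows of Cbln3, 0.564% of those of Grid1, 1.74% of those of Nrxn2 and 5.02% of those of Nrxn3 did.

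The genes lie apart from each other. On GRCm38, Cbln1 is at chromosome 8, 87468405 to 87472609, Cbln3 at chromosome 14, 55878913 to 55884392, Cbln4 at chromosome 2, 172036233 to 172043466, Grid1 at chromosome 14, 34820108 to 35583379, Nrxn2 at chromosome 19, 6418731 to 6544169, Nrxn3 at chromosome 12, 88722876 to 90334935, and Cbln2 on chromosome 18. Cbln1 is overlapped on the opposite strand by the long noncoding RNA gene Gm2694, Nrxn2 by Gm14964, Slc22a12 and 1 further gene, and Nrxn3 by Gm37980 and 1 microRNA gene on the opposite strand. No other gene overlaps Cbln2, Cbln3 or Cbln4. Whether the counting used strand was not given in the sources used here, so reads from a gene and from its antisense partner cannot be told apart in these values.

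Region separated the cerebellins into 2 pairs. Cbln1 and Cbln3 were high in the Ce and low in the St, whereas Cbln2 and Cbln4 were expressed in the St and low in the Ce. Grid1 was higher in the St and Nrxn2 slightly higher in the Ce, and Nrxn3 was not called in either line. Thus 6 of the 7 genes passed in the region comparison of the Co line and the same count passed in the Hi line, against 74.7% and 70.5% of all genes tested, so a region difference as such was common. Samples of the 2 regions did not overlap for 6 of the 7 in either line, against 69.9% of all genes in the Co and 68.3% in the Hi line. With log2 differences (CeCo minus StCo) of 6.80 for Cbln1, 10.92 for Cbln3 and -6.52 for Cbln2, these genes were 111-fold, 1936-fold and 92.0-fold apart between regions, while the median of all genes was at 0.01.

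**Figure D1:**
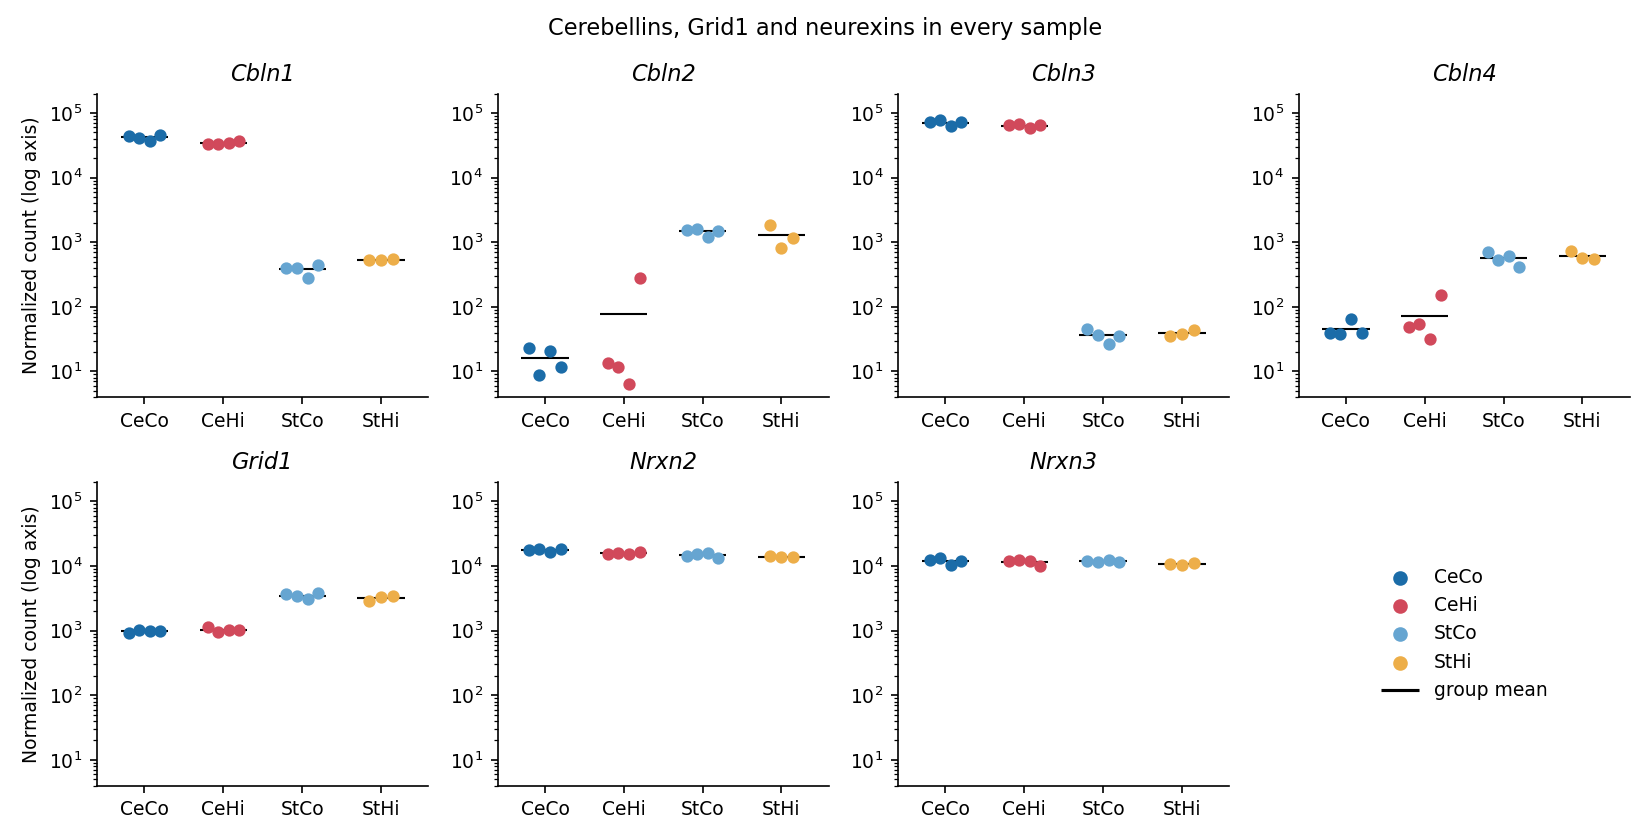
Normalized counts (log axis, the same in all panels) of the 7 genes in each of the 15 samples, by group, with a line at the group mean. Cbln1 and Cbln3 are high in CeCo and CeHi and low in StCo and StHi, Cbln2 and Cbln4 show the reverse with 1 CeHi sample at 277 and 154 normalized counts, and both neurexins lie between 9858 and 18482 in every group.

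Cbln3, which needs Cbln1 to leave the cell, showed the widest gap. It was measured at 71285, 77324, 63403 and 71300 normalized counts in CeCo replicates 0 to 3 and at 64140, 66530, 57676 and 64271 in CeHi. In StCo the values were 45.7, 36.6, 26.3 and 35.7, and in StHi they were 35.0, 37.9 and 43.9, which are 25 to 39 fragments per sample. No Ce sample came near any St sample. The log2 difference was 10.92 (SE 0.12, FDR-adjusted P-value = 1.14e-18) in the Co line and 10.63 (SE 0.13, FDR-adjusted P-value = 6.33e-18) in the Hi line. Gabra6, a receptor subunit that among these tissues marks granule cells, had a log2 difference of 11.50 in the Co line, and was measured at 10.5 to 23.8 normalized counts in the St samples.

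Cbln1 fell less steeply between regions. Normalized counts were 44544, 41422, 36594 and 46041 in CeCo and 33066, 33612, 34728 and 37403 in CeHi. In the St they were 394, 396, 282 and 450 in StCo and 532, 531 and 551 in StHi, from 269 to 547 fragments per sample. All St samples had more Cbln1 than Cbln3 counts, although Cbln3 was the higher of the pair in every Ce sample. The ratio of Cbln1 to Cbln3 counts was 0.505 to 0.646 over the 8 Ce samples and 8.62 to 15.2 over the 7 St samples. The log2 difference between regions was 6.80 (SE 0.11, FDR-adjusted P-value = 3.77e-17) in the Co line and 6.00 (SE 0.12, FDR-adjusted P-value = 6.61e-16) in the Hi line, or 111-fold and 64.1-fold.

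Cbln2 had the opposite pattern. In StCo it was measured at 1533, 1624, 1221 and 1509 normalized counts, and in StHi at 1839, 824 and 1159. In CeCo it was at 23.3, 8.92, 20.5 and 11.6, and in CeHi at 13.5, 11.6, 6.48 and 277. The last of these, replicate 3, was at 262 fragments where the other Ce samples had 7 to 25, and it did not reach the lowest St sample. The log2 difference (Ce minus St) was -6.52 (SE 0.90, FDR-adjusted P-value = 2.82e-05) in the Co line and -5.61 (SE 0.97, FDR-adjusted P-value = 0.000224) in the Hi line. Without CeHi replicate 3 the Co difference was still -6.52 (FDR-adjusted P-value = 5.5e-11, limma), as that sample enters it only through the shared spread. The Hi difference was then -6.77, and it was -4.06 by DESeq2 on recovered fragments with all samples.

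Cbln4, the ligand that also binds netrin receptors, was at 708, 535, 607 and 415 normalized counts in StCo and at 741, 567 and 547 in StHi. The Ce values were 39.1, 38.3, 64.0 and 39.2 in CeCo and 48.8, 54.9, 31.5 and 154 in CeHi, the highest again in replicate 3. Ce and St did not overlap in either line. The log2 differences were -3.63 (SE 0.36, FDR-adjusted P-value = 3.62e-07) and -3.33 (SE 0.39, FDR-adjusted P-value = 2.58e-06), so the St exceeded the Ce 12.4-fold in the Co line and 10.1-fold in the Hi line. Without CeHi replicate 3 the Hi difference was -3.78.

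Grid1, the delta receptor of forebrain and other neurons, was measured at 919, 1039, 992 and 996 normalized counts in CeCo and at 1143, 942, 1032 and 1034 in CeHi. StCo samples were at 3649, 3388, 3133 and 3795, and StHi samples at 2895, 3293 and 3489. Every St sample was above every Ce sample, by 3.54-fold in the Co line (log2 -1.82, SE 0.07, FDR-adjusted P-value = 5.86e-13) and 3.11-fold in the Hi line (log2 -1.64, SE 0.08, FDR-adjusted P-value = 9.88e-12).

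The neurexins, presynaptic cell adhesion receptors, hardly differed by region. Nrxn2 was at 17974, 18110, 16264 and 18482 normalized counts in CeCo and 14433, 15467, 15827 and 13144 in StCo, and at 15486, 16197, 15585 and 16790 in CeHi against 14381, 13854 and 13824 in StHi. Each Ce sample was above each St sample of its line, by small margins. The log2 difference was 0.26 (SE 0.06, FDR-adjusted P-value = 0.00064) in the Co line and 0.19 (SE 0.06, FDR-adjusted P-value = 0.0148) in the Hi line, and the Hi call was lost with a replicate block within the line (FDR-adjusted P-value = 0.0686). Nrxn3 was at 12411, 13568, 10553 and 12086 normalized counts in CeCo, 12011, 12271, 12064 and 9858 in CeHi, 12143, 11562, 12415 and 11372 in StCo, and 10898, 10518 and 11228 in StHi. Its groups overlapped between regions in both lines, with log2 differences of 0.02 (95% interval -0.13 to 0.18) and 0.08 (95% interval -0.09 to 0.25), the latter at 0.15 without CeHi replicate 3. Under quantile scaling, which shifted the median of all genes from 0.01 to 0.10, these were 0.18 and 0.21 and both passed.

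Levels can be set between genes only per length, here as CPM per kilobase of merged exons. In CeCo, Cbln3 (369 ± 23.3, SD, n = 4) and Cbln1 (352 ± 33.2) led and overlapped each other, followed without overlap by Nrxn2 (32.5 ± 1.51), Nrxn3 (24.4 ± 2.05), Grid1 (4.20 ± 0.218), Cbln4 (0.396 ± 0.118) and Cbln2 (0.141 ± 0.0612). In CeHi the first 5 places were the same, and Cbln2 and Cbln4 overlapped. In StCo the order began with Nrxn2 (24.9 ± 2.46) and Nrxn3 (22.0 ± 1.21), which overlapped. Grid1 (13.7 ± 0.895) and Cbln2 (11.9 ± 1.26) came next and overlapped, then Cbln4 (4.56 ± 0.984) and Cbln1 (2.92 ± 0.498), which did too, and Cbln3 (0.173 ± 0.0349) came last. StHi kept this order, with Nrxn2 at 23.9 ± 0.53 and Cbln1 at 4.17 ± 0.0644 (SD, n = 3), and there only Grid1 and Cbln2 overlapped.

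As shares of the 4 cerebellins per length, Cbln1 and Cbln3 made up 48.7% ± 2.09 and 51.2% ± 2.09 in CeCo (SD, n = 4), and Cbln2 and Cbln4 together less than 1% in each CeCo sample. In StCo, Cbln2 made up 60.8% ± 3.25, Cbln4 23.4% ± 5.19, Cbln1 14.9% ± 2.25 and Cbln3 0.878% ± 0.119. In StHi, the share of Cbln1 was 22.0% ± 5.15 and that of Cbln2 was 51.2% ± 8.13 (SD, n = 3). The length of Cbln3 matters for these shares, because its merged exons of 4866 bases come from 1 long transcript. Over its shorter transcript of 1438 bases, the level of Cbln3 in CeCo was 1249 ± 78.8 CPM per kilobase, which would place it above Cbln1.

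Between the lines, 1 call was made among the 7 genes. Cbln1 was over-expressed in StHi relative to StCo, against 2.66% of all genes called in the St. In the Ce, 0 of the 7 passed by limma, against 5.94% of all genes, with 2 of 7 (Cbln1 and Nrxn2) at an unadjusted P-value under 0.05, 0 by edgeR and 1 (Cbln1) by DESeq2. Cbln1 values in the Ce ran the other way without passing, and the line-by-region interaction passed for Cbln1 alone among the 7, against 0.532% of all genes. Across both regions 0 of the 7 passed by limma, edgeR or DESeq2, against 8.48% of all genes by limma. Only Nrxn2 had an unadjusted P-value under 0.05 there (0.0204, FDR-adjusted P-value = 0.134), and its FDR-adjusted P-value was 0.0486 with sample weights and 0.0439 without StCo replicate 3.

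In the St, the 3 StHi samples (532, 531 and 551 normalized counts of Cbln1) lay above the 4 StCo samples (394, 396, 282 and 450). The StHi samples were close to each other, while StCo replicate 2 was low. The mean was 41.4% higher in StHi, and the log2 difference was 0.51 (SE 0.12, 95% interval 0.26 to 0.76, FDR-adjusted P-value = 0.0262). The exact two-sided permutation test used here doubles the smaller tail. For 4 against 3 samples it therefore cannot go below 0.0571, and it gave that value. The call was lost when any 1 of the StHi samples was left out (FDR-adjusted P-values of 0.0611, 0.0798 and 0.0996), and when only the St samples were fitted (0.112), with the log2 difference still between 0.50 and 0.52. On recovered fragments, edgeR gave an FDR-adjusted P-value of 0.0326 and DESeq2 of 0.00165.

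In the Ce, CeHi samples (33066, 33612, 34728 and 37403) lay below CeCo samples (44544, 41422, 36594 and 46041) except for 1 overlap, of CeHi replicate 3 with CeCo replicate 2. The mean was lower in CeHi, with a log2 difference of -0.28 (SE 0.11, 95% interval -0.51 to -0.05, FDR-adjusted P-value = 0.153), which did not pass. It did pass in 3 alternatives, with only the Ce samples fitted (0.0472), with DESeq2 (0.0426) and without StCo replicate 2 (0.0223), which is not a Ce sample and enters through the shared spread.

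The interaction for Cbln1, the Ce line difference minus the St line difference, was -0.80 (SE 0.16, 95% interval -1.14 to -0.46, FDR-adjusted P-value = 0.0358). It passed with edgeR (0.0268) and with DESeq2 (0.00014), but 11 of the 15 fits that each left out 1 sample put it over the threshold, at FDR-adjusted P-values of up to 0.0917. Its direction was the same in all of them, with values from -0.88 to -0.66. The fits that kept it were those without CeCo replicate 2, CeHi replicate 3, StCo replicate 2 or StCo replicate 3.

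**Figure D2:**
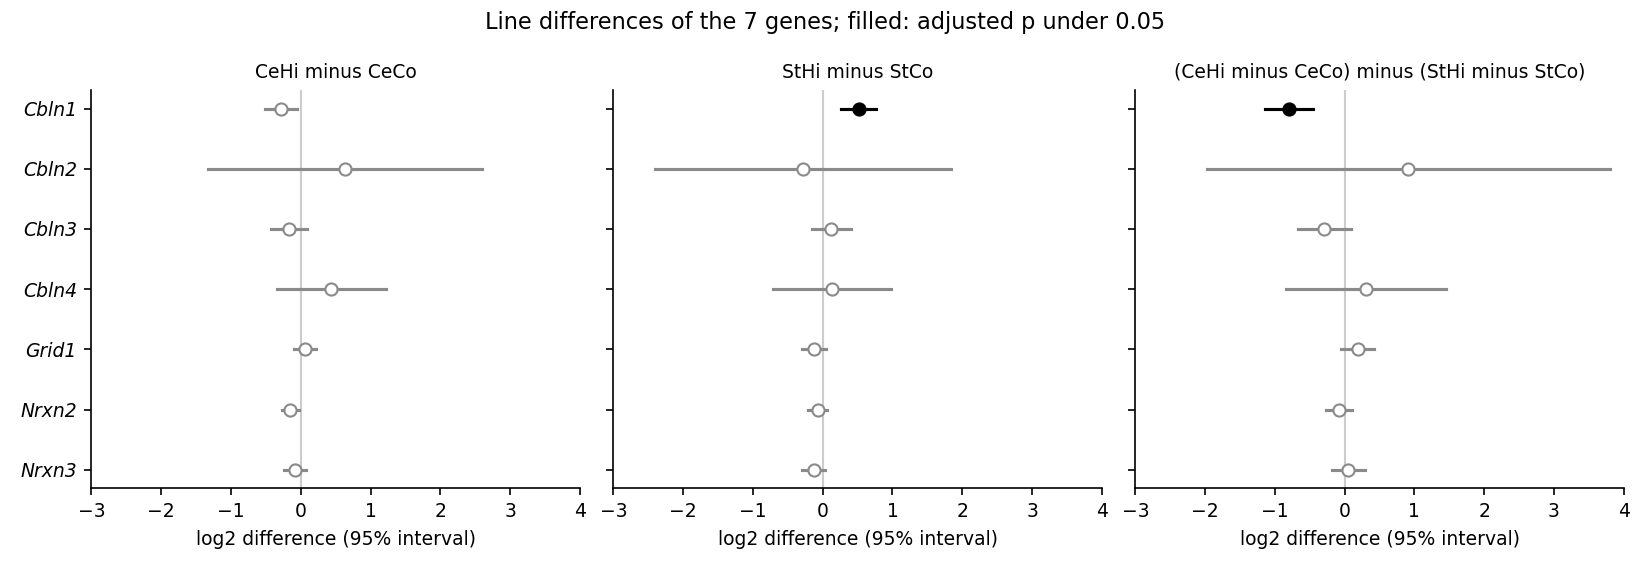
Line differences of the 7 genes on the log2 scale with 95% intervals, in the Ce (left), in the St (middle) and as the interaction (right), with filled points where the FDR-adjusted P-value is under 0.05. Cbln1 is filled in the St (0.51) and in the interaction (-0.80), and the intervals of Cbln2 are the widest.

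Levels of markers of other cells and regions also stood apart between the lines in the St. Of 7 thalamus markers, 4 (Slc17a6, Tcf7l2, Lhx9 and Plekhg1) were higher in every StHi than in every StCo sample, against 13.1% of all genes free of overlap in either direction, while Prkcd, Gbx2 and Lef1 overlapped, and the list summed to between 118 and 128 CPM in StHi and between 71.8 and 108 in StCo. Slc17a6, the vesicular glutamate transporter of thalamic and other subcortical neurons, was at 2284, 1796 and 1794 normalized counts in StHi and at 1202, 1102, 1015 and 551 in StCo (log2 1.06, SE 0.38, FDR-adjusted P-value = 0.196). Lhx9 was at 58.4, 111 and 84.3 in StHi and at 16.0, 22.7, 21.0 and 2.74 in StCo, and only Plekhg1 of the list passed (log2 0.47, SE 0.09, FDR-adjusted P-value = 0.00457). En2, a transcription factor of the midbrain, hindbrain and cerebellum, was at 59.7, 150 and 164 normalized counts in StHi and at 35.8, 41.5, 37.8 and 54.8 in StCo (log2 1.41, SE 0.26, FDR-adjusted P-value = 0.00983). Its list of 7 summed to between 9.89 and 11.4 CPM in StHi and between 8.33 and 11.3 in StCo, and 4 of those 7 were tested. The 5 oligodendrocyte markers summed to between 6630 and 7529 CPM in StHi and between 4336 and 6181 in StCo, with 0 of 5 passing by limma or edgeR, 4 at an unadjusted P-value under 0.05 and 1 (Mbp) passing by DESeq2, and cortical neuron markers summed to between 153 and 277 against 245 and 333. Mog, one of the 5, was lower on average in StHi (2440 against 2699). Choroid plexus markers summed to between 41.7 and 418 CPM in StHi and between 29.6 and 44.0 in StCo, with overlap. Relative to Slc17a6 alone, the log2 difference of Cbln1 in the St was -0.55 (exact two-sided permutation test, P-value = 0.171). Relative to the mean of the granule cell markers it was 0.55 (exact two-sided permutation test, P-value = 0.0571). Relative to Cbln3 it was 0.39 (exact two-sided permutation test, P-value = 0.114). Beyond these ratios, the part of the markers above in the Cbln1 difference was not tested.

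Granule cell markers did not separate the lines in the St. They summed to between 121 and 153 CPM in StHi and between 115 and 175 in StCo. Of the 8, 0 were free of overlap, passed by limma, edgeR or DESeq2 or had an unadjusted P-value under 0.05. Of all genes, 13.1% were free of overlap and 2.66% were called by limma, so a count of 0 among 8 is near the background. Barhl1 was at 3 fragments or fewer in every St sample, and Gabra6 was at 18.2, 12.6 and 22.6 normalized counts in StHi against 19.7, 19.8, 10.5 and 23.8 in StCo. Cbln3 was likewise at 35.0 to 43.9 against 26.3 to 45.7 (log2 0.12, SE 0.13, FDR-adjusted P-value = 0.775). Gm2694, on the opposite strand to Cbln1, was at 32.4, 21.4 and 19.0 in StHi and 22.2, 31.7, 21.0 and 43.9 in StCo, so it did not rise with Cbln1 in the St (log2 -0.26, SE 0.21, FDR-adjusted P-value = 0.66).

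In the Ce, Gm2694 followed Cbln1. It was at 1665, 1684, 1697 and 1719 normalized counts in CeHi and at 2006, 2095, 1883 and 2277 in CeCo, with no overlap, and the log2 difference of -0.29 matched that of Cbln1 (exact two-sided permutation test, P-value = 0.0286, the smallest that 4 against 4 allows, and FDR-adjusted P-value = 0.44 by limma). The ratio of Cbln1 to Gm2694 was 20.5 ± 0.87 in CeHi and 20.4 ± 1.24 in CeCo (SD, n = 4). Relative to the mean of the 8 granule cell markers, the log2 difference of Cbln1 in the Ce was -0.19 (exact permutation P-value = 0.0857), and relative to Cbln3 it was -0.11 (exact permutation P-value = 0.257), both chosen after the data were seen. The granule cell list summed to between 4274 and 4717 CPM in CeHi and between 4591 and 4997 in CeCo. Beyond these ratios, the part of this list in the Cbln1 values was not tested.

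**Figure D3:**
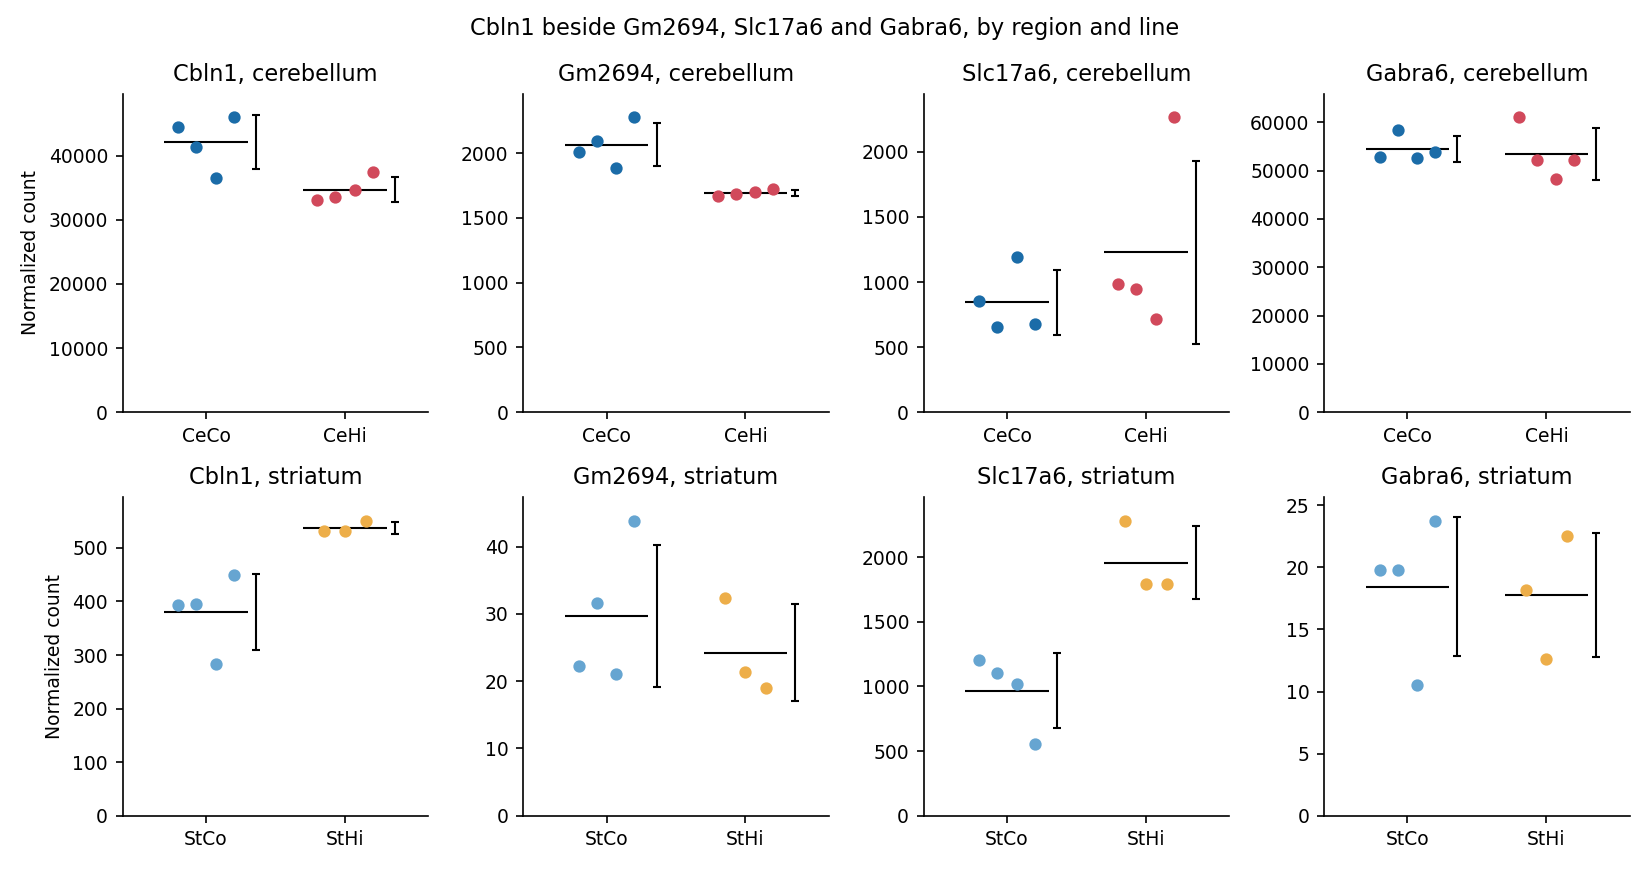
Normalized counts of Cbln1, the opposite-strand gene Gm2694, the thalamic marker Slc17a6 and the granule cell marker Gabra6 in the Ce (top) and the St (bottom), with points for samples, a line at the group mean and bars of ± 1 SD (n = 4, and 3 for StHi). All axes start at 0. Cbln1 and Slc17a6 are higher in all StHi than in all StCo samples, Gabra6 is not, and Gm2694 is lower in all CeHi than in all CeCo samples.

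The other 6 genes did not pass in either region, and for some the interval is wide. For Cbln2, line differences were 0.63 (95% interval -1.33 to 2.59) in the Ce and -0.28 (95% interval -2.40 to 1.83) in the St. Both intervals hold changes of several fold in either direction. The groups share their spread in the model, so CeHi replicate 3 enters the St interval as well. Without that sample the St value was again -0.28 (FDR-adjusted P-value = 0.777, limma). The Ce value turned to -0.53 without CeHi replicate 3 and was 2.26 by DESeq2 with all samples (FDR-adjusted P-value = 0.117). For Cbln4 the line differences were 0.44 (95% interval -0.34 to 1.22) in the Ce and 0.13 (95% interval -0.71 to 0.98) in the St. The Ce value of Cbln4 was -0.01 without CeHi replicate 3.

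Intervals were narrower for the remaining genes. For Grid1 the line difference was 0.07 (95% interval -0.09 to 0.22) in the Ce and -0.12 (95% interval -0.29 to 0.05) in the St. Nrxn2 was lower in CeHi on average (log2 -0.15, 95% interval -0.27 to -0.03, FDR-adjusted P-value = 0.16), and its St value was -0.07 (95% interval -0.21 to 0.06). Nrxn3 was at -0.08 (95% interval -0.24 to 0.08) in the Ce, or at -0.0027 without CeHi replicate 3, and -0.13 (95% interval -0.30 to 0.04) in the St. All 3 StHi samples of Nrxn3 lay below all 4 StCo samples, so 2 of the 7 genes, Cbln1 and Nrxn3, had line groups without overlap in the St, against 13.1% of all genes, and 0 of 7 did in the Ce, against 13.3%.

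CeHi replicate 3 differed from the other 7 Ce samples in many genes. It was above all of them in 23.5% and below all of them in 19.4% of the genes tested. Beside Cbln2 (277, with 6.48 to 23.3 over the remaining 7 samples of the Ce) and Cbln4 (154 against 31.5 to 64.0), 3 of 7 thalamus markers were the highest there, namely Tcf7l2 (1183 against 176 to 237), Lhx9 (413 against 46.4 to 87.5) and Slc17a6 (2267 against 654 to 1190), and 1, Prkcd, was the lowest (2930 against 3380 to 4765). Of 10 medium spiny neuron markers, 6 were the highest, with Drd2, a dopamine receptor, at 109 against 18.7 to 33.6, and 2 were the lowest, Pde10a (3567 against 4675 to 6147) and Foxp1 (860 against 867 to 1021). Of 7 midbrain and hindbrain markers 2 were the highest, En1 (355 against 139 to 245) and Slc6a3 (6.34 against 0 to 4.63), and 1, En2, was the lowest. Of 5 oligodendrocyte markers 2 were the highest and 0 the lowest, and of 5 microglia markers 1 and 0. Of 5 Purkinje cell markers 1 (Pcp2) was the highest and 1 the lowest, of 8 granule cell markers 0 and 1, and of 7 cortical markers 0 and 0. For astrocyte and choroid plexus markers both counts were 0. In this sample Cbln4 was at 26.2% and Drd2 at 2.41% of the St mean. Nrxn3 was the lowest of the 8 Ce samples in this replicate (9858 against 10553 to 13568), and Cbln1, Cbln3, Grid1 and Nrxn2 lay within the range of the others. The part of these genes in the Cbln2 and Cbln4 values was not tested.

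**Figure D4:**
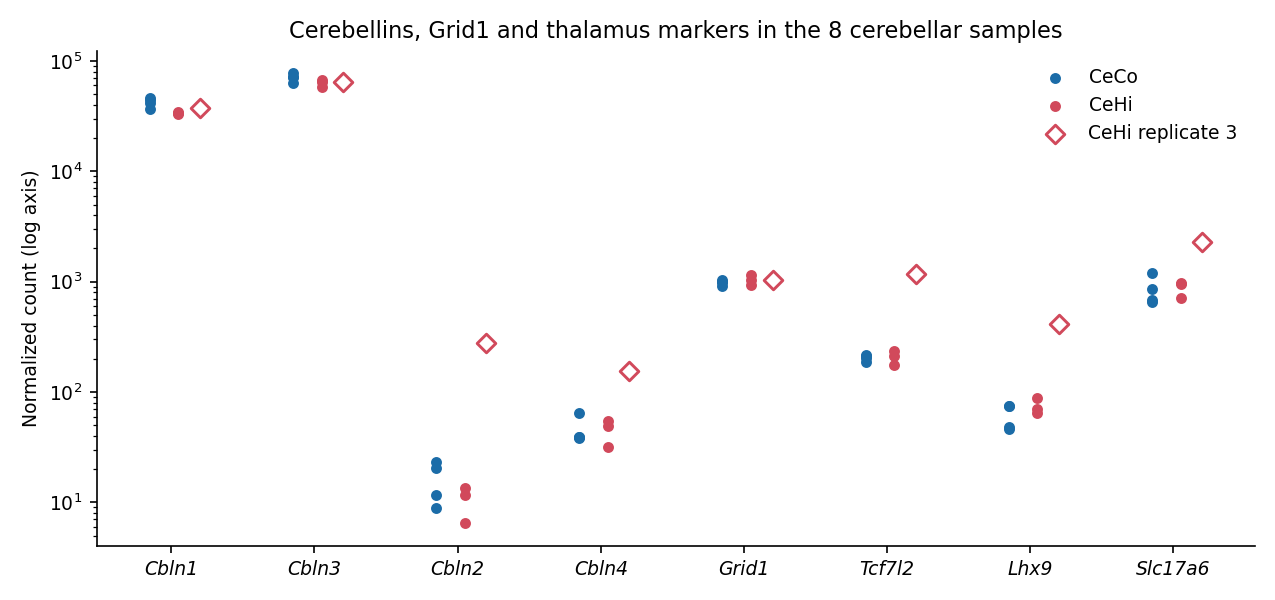
Normalized counts (log axis) of 5 of the genes and of 3 thalamus markers in the 8 cerebellar samples, with CeHi replicate 3 as an open diamond. In that sample Cbln2, Cbln4, Tcf7l2, Lhx9 and Slc17a6 lie above all other samples, and Cbln1, Cbln3 and Grid1 lie among them.

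Partners of the 7 genes were described from 9 lists of 59 genes, of which 58 were tested (C1ql4 was not). In the Co line, 14 were higher and 38 lower in the Ce than in the St, with a median log2 difference of -0.36. For all genes tested 37.8% were higher and 36.9% lower in the Ce, with a median of 0.01. Lists are given in the order of the synapse, from ligands to the cytoplasm.

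Of 11 postsynaptic neurexin ligands, 9 were lower in the Ce of Co mice, led by the leucine-rich repeat proteins Lrrtm1 (166 to 190 normalized counts in CeCo and 2673 to 2797 in StCo, log2 -3.95) and Lrrtm4 (log2 -2.50), and Clstn3, a calsyntenin, alone was higher (log2 0.21). Of 10 soluble and membrane partners, 3 were higher and 7 lower. The higher ones with the largest differences were Fam19a3 (log2 2.35) and Car10 (log2 1.77), both of which bind neurexins. Fam19a3 was low in both regions, at 17.1 to 27.0 normalized counts in CeCo and 1.23 to 7.91 in StCo, so its log2 value depends on the pseudocount. Nxph2, a neurexophilin, was at 0 to 1.86 in CeCo and 147 to 181 in StCo, and Fam19a4 at 0 to 0.932 and 40.2 to 56.8. All 4 tested genes of the C1q-like proteins and their receptor were lower in the Ce, C1ql2 (log2 -2.60) and C1ql3 (log2 -1.64) the most. The Cbln4 receptors Dcc (113 to 199 in CeCo, 2065 to 2282 in StCo, log2 -3.83) and Neo1 (log2 -0.29) were both lower in the Ce, as Cbln4 was.

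Inside the cell, 4 of 6 delta receptor partners were higher in the Ce, among them the phosphatase Ptpn4 (4226 to 4797 normalized counts in CeCo, 1564 to 2251 in StCo, log2 1.20), while Magi2 (log2 -0.89) and Shank1 (log2 -0.27) were lower. Neurexin partners were mixed, with 3 of 8 higher and 4 lower. Within the Lin7 scaffold family Lin7a (log2 2.25) and Lin7c (log2 0.75) were higher in the Ce and Lin7b (log2 -2.75) was lower, as was Mpp2 (log2 -1.47). Of 3 neurexin splicing regulators, Khdrbs3 (log2 -2.78) and Khdrbs2 (log2 -0.31) were lower in the Ce. Of 12 receptor phosphatases and their ligands 8 were lower, Slitrk6 (log2 -4.05) and Slitrk5 (log2 -2.37) the most, and Slitrk4 (log2 0.37) and Ntrk3 (log2 0.22) were higher.

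**Figure D5:**
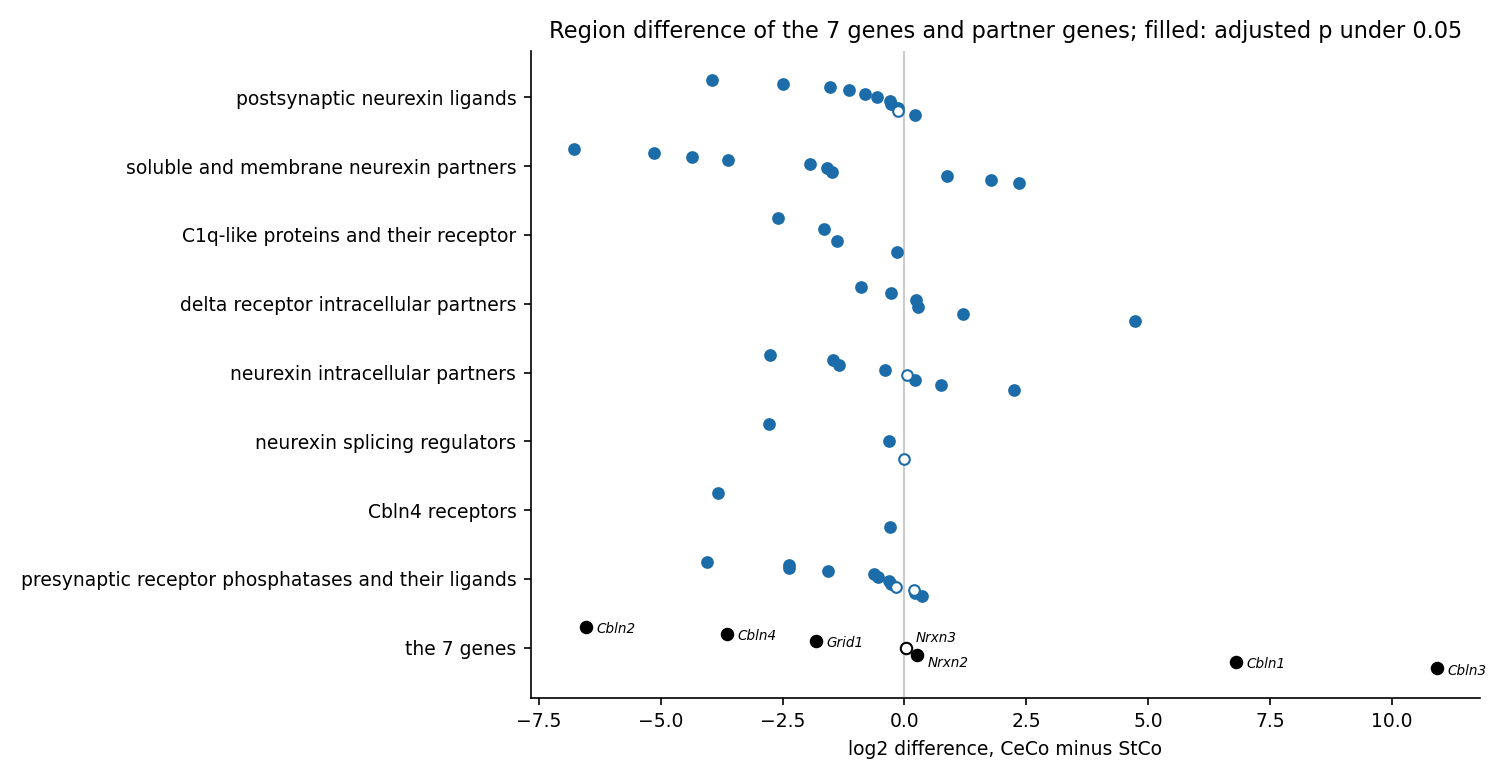
Log2 difference between regions in the Co line (CeCo minus StCo) for the tested partner genes of 8 lists and for the 7 genes (bottom, black), with filled points where the FDR-adjusted P-value is under 0.05. Cbln3 (10.92), Cbln1 (6.80) and Cbln2 (-6.52) lie outside or near the ends of the range of the partners, whose lowest points, Nxph2 and Fam19a4, are at the floor in CeCo and so depend on the pseudocount.

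Between lines, 3 of the 58 partners passed in the Ce, all higher in CeHi, 1 passed in the St, lower in StHi, and 0 passed the interaction by limma, where 5.94%, 2.66% and 0.532% of all genes did. In the interaction 7 had an unadjusted P-value under 0.05, 0 passed by edgeR and 2 (Slitrk1 and Slitrk3) by DESeq2. Dcc was at 262, 307, 190 and 305 normalized counts in CeHi and at 147, 169, 199 and 113 in CeCo (log2 0.75, SE 0.16, FDR-adjusted P-value = 0.0112), with 1 CeHi sample inside the CeCo range. Slitrk3, like other Slitrk proteins a postsynaptic ligand of receptor phosphatases, was at 727, 667, 690 and 725 against 521, 547, 526 and 587 (log2 0.36, SE 0.07, FDR-adjusted P-value = 0.00709), without overlap. Lrrtm1 was at 219, 215, 209 and 277, with its highest value in CeHi replicate 3, against 166, 169, 190 and 178 (log2 0.38, SE 0.08, FDR-adjusted P-value = 0.00823), and was lost with only the Ce samples fitted (0.0814). Lrrtm1 lies on the opposite strand of Ctnna2, whose reads cannot be told apart from it here. Dcc and Slitrk3 passed in all 28 alternatives, the fits without CeHi replicate 3 included. In the St, Slitrk1 was at 2555, 1950 and 2653 in StHi against 3466, 3623, 2982 and 3132 in StCo (log2 -0.48, SE 0.11, FDR-adjusted P-value = 0.0191), and was lost without StCo replicate 0 (0.0515), StCo replicate 1 (0.0685) or StHi replicate 1 (0.104), and with only the St samples fitted (0.0689).

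Genes whose log2 values were among the 3 most like each of the 7 over the 15 samples are given by Pearson correlation, as a description in which the 2 regions weigh most. For Cbln1 they were Cbln3, Mmp24 and Atp2a3 (r of 0.998 each), and for Cbln3 they were Pax3, Gabra6 and Rps6ka1 (r of 0.999 each). Cbln2 went with Vip (0.992), 4930539E08Rik (0.990) and Six3 (0.989), and Cbln4 with Kcnc2 (0.994), Ankrd34c (0.993) and Rasgrf2-2 (0.993). For Grid1 they were Nkain2, Arpp19 and 9430020K01Rik (0.997 each), for Nrxn2 Sdhaf1 (0.943) and Ctu2 (0.931), and for Nrxn3 Gon4l (0.795) and Gse1 (0.782).

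After the mean of each region was removed, the likeness was weaker for Cbln1, with Nek8 (0.820), 6720489N17Rik (0.819) and 2700070H01Rik (0.805). Cbln2 then went with 4930539E08Rik (0.946), Rasgrf2-2 (0.942) and Lhx2 (0.941), and Cbln4 with Ankrd34c (0.944), Kcnc2 (0.934) and 6030405A18Rik (0.923), with CeHi replicate 3 far from the other Ce samples in both genes. For Cbln3 they were Zfp882 (0.865), Gm10572 (0.850) and Klf9 (0.849), for Grid1 Gm13430 (0.863), Rbbp7 (0.857) and Tmem165 (0.841), for Nrxn2 6430571L13Rik (0.935), Klhl26 (0.888) and Ctu2 (0.864), and for Nrxn3 2900056M20Rik (0.914) and Ncam1 (0.887).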

How the data were processed

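Sequencing gave read pairs of 100 bases, which the authors mapped with TopHat2 on GRCm38, and Cuffnorm 2.2.1 turned fragments per gene into library-size-scaled values. The deposited values are this normalized signal per gene and carry no division by length, whatever the name of the table (FPKM) says. Between 99.7% and 99.8% of low values were whole multiples (within 2% of the multiple, up to 20) of a step per sample. The authors removed 1 StHi sample, which is not analysed here.

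Groups were taken from the labels, and every direction of a line difference rests on the labelled columns as deposited. Of 26628 genes, 15213 had a CPM of 1 or more in 3 samples or more, and these entered limma 3.58.1 (R 4.3.3, trended and robust) on log2 of the value, scaled with TMM factors of edgeR 4.0.16, plus 1. One model of the 4 group means covered all 15 samples, with Benjamini-Hochberg adjustment over all genes tested and a threshold of 0.05. A fold is on the log2(value + 1) scale, which understates changes of low genes. Intervals cover 95%. A group at 3 fragments or fewer in every sample counts as at the floor, which covers counting error only. The model had been set for values per length and the unit was settled on the values. P-values measure the spread between mice of 1 line per kind of breeding.

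The 7 genes and all lists were chosen with earlier results of these data known. Named partners are those passing a line contrast and the 2 largest region differences in each direction per list, and some genes that this rule takes are not reported here. Single measures were compared with two-sided exact permutation tests (scipy 1.17.1). On simulated data with 15213 genes, 200 were set to change by 1 on the log2 scale in the Ce. The simulation gave every gene the same spread setting between samples and no region difference. Changed genes were drawn only from those above a minimum mean count. Recovery there does not speak for genes with a wider spread, such as Cbln2. The model called 205 genes in the Ce contrast, 200 of them changed ones (100% recovered). In the interaction it called 205 genes, 193 of them changed ones (96.5% recovered). Recovery of smaller changes, such as the line differences of Cbln1, was not tested. Alternatives covered pseudocount, filter, scaling, moderation, sample weights, replicate block, samples fitted, edgeR and DESeq2 1.42.0 on recovered fragments, and each sample left out. Sequences and lengths are from GENCODE M21. Residuals of same-numbered Ce and St samples correlated at 0.171 to 0.278 in the Co line (4 pairs). In the Hi line (3 pairs) they correlated at -0.075 to 0.051. Same numbers may thus stand for pairs in the Co line, but the main model paired no samples in either line. The replicate blocks used the numbers in both lines.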

Additional observations from a re-analysis of the deposited data

Results flagged for a closer look

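Cbln2 in CeHi replicate 3 (277 normalized counts) was far from the other 3 CeHi samples, with a gap of 97.4% of the group's range. Cbln4 in CeCo replicate 2 (64.0 normalized counts) stood above the other 3 CeCo samples in the same way, as did Nrxn3 in CeHi replicate 3 (9858 normalized counts) below the other CeHi samples. Of 21 groups of 4 samples examined for an outlying sample, 3 were marked, and chance marks about 1 in 20. The line difference of Cbln1 differed between the Ce and the St by -0.80 on the log2 scale, by the test of the interaction (FDR-adjusted P-value = 0.0358, limma), with 4 StCo samples below 3 StHi samples and all but 1 of the CeCo samples above all CeHi samples.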

How the results depend on the processing

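Of 1183 values of the 7 genes under alternatives, 1134 kept their direction and their side of the threshold. The region differences of Cbln1, Cbln2, Cbln3, Cbln4 and Grid1 kept both in every one. The replicate block, with same-numbered samples of both lines as blocks, changed no call of the 7 genes. The replicate block within line lost the Nrxn2 region call in the Hi line. With the replicate block as a term, the Cbln1 interaction was -0.85 and its St line difference 0.57, and within line the interaction was -0.83. The causes of the following changes were not tested. For Cbln1, the Ce line difference passed with only the groups compared (-0.28) and with DESeq2 (-0.28). The St line difference did not pass without moderation by trend and robustness (0.51) or with only the groups compared (0.52), and the interaction did not under quantile scaling (-0.77) or without that moderation (-0.80). With single samples left out, the Ce line difference ran from -0.34 to -0.23, the St line difference from 0.38 to 0.60 and the interaction from -0.88 to -0.66. Counts of genes called moved with DESeq2 to 1389 for the Ce line, 709 for the St line and 277 for the interaction (903, 405 and 81 by limma), with sample weights to 740 and 182 for the last 2 of these, and between 42 and 117 for the interaction with single samples left out.

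Several values that did not pass the test changed sign. For Cbln2 the Ce line difference was -0.089 with sample weights, the St line difference 0.071 with the replicate block, the interaction -0.25 with the block within line, and the difference over both regions -0.25 with sample weights. For Cbln4 the interaction was -0.15 with the block within line, for Cbln3 the difference over both regions was 0.050 under quantile scaling, and for Grid1 it was 0.0060 with sample weights. With single samples left out, ranges crossed 0 for the Ce line differences of Cbln2 (-0.53 to 1.21) and Cbln4 (-0.010 to 0.75), the St line differences of Cbln3 (-0.017 to 0.24) and Cbln4 (-0.0047 to 0.25), the interactions of Cbln2 (-0.25 to 1.49), Cbln4 (-0.15 to 0.60) and Nrxn3 (-0.016 to 0.12), the differences over both regions of Cbln2 (-0.40 to 0.47), Cbln3 (-0.093 to 0.037) and Grid1 (-0.056 to 0.010), and the Co region difference of Nrxn3 (-0.025 to 0.093).

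Levels per kilobase moved, by construction, with the length used. Over the longest transcript, Nrxn2 was at 67.4, 60.9, 51.7 and 49.5 CPM per kilobase in CeCo, CeHi, StCo and StHi, Nrxn3 at 38.9, 36.9, 35.1 and 32.3, Cbln1 at 314 in CeHi and 4.52 in StHi, and Cbln2 at 13.5 in StCo. Over its shorter transcript, a choice made after seeing the data, Cbln3 was at 1249, 1112, 0.584 and 0.637. Cbln3 in the St rests on 25 to 39 fragments a sample, and Cbln2 in 7 of the 8 Ce samples on 7 to 25.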
